A study of Mus musculus with 24 samples.

Results

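Interferon-induced genes are those whose transcription rises when a cell senses interferon, and 43 of them were followed here in thymocytes of the NOD and B10 strains. They are a list of mouse genes given by name. Of the 43 genes, 36 had a probeset of their own in the annotation of the array, out of 12393 genes that had one. Isg15, Trex1, Gbp4 and Ifi203 were read only by probesets shared with other genes and were not used, and Ddx58, Xaf1 and Ifi44 had no probeset in the annotation used here. Eif2ak2, which encodes a kinase activated by double-stranded RNA, had no condition in which all 3 arrays reached a signal of 32 and was not tested. The other 35 members reached it: 29 did so in a PreS condition, and 6 (Dhx58, Mx1, Oasl2, Stat2, Gbp3 and Cxcl10) only in S- or S+ cells.

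All mice carried the 3A9 T cell receptor (TCR) transgene, and thymi came from healthy females aged 6 to 8 weeks of NOD.H2k (NOD) or C57BL10.H2k (B10) background. S- cells were CD4+CD8lowCD69+ cells bearing the transgenic receptor (1G12+) from TCR insHEL mice, which also express hen egg lysozyme under the insulin promoter, and so meet their antigen in the thymus. S+ cells had the same surface phenotype but came from TCR mice without the lysozyme transgene. PreS cells were CD4+CD8+CD69-1G12- double positive thymocytes, sorted from TCR insHEL mice (PreS TCR insHEL) and from TCR mice (PreS TCR). Each of the 4 populations was measured in 3 pools of each strain, 24 arrays in all, and both PreS populations of a strain were merged as 6 arrays unless stated. Arrays are numbered by the replicate number of their pool.

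Type I interferons act through the receptor chains Ifnar1 and Ifnar2 and the kinases Jak1 and Tyk2, which activate a transcription factor complex that includes Stat2 and Irf9. This complex binds the interferon-stimulated response element (ISRE), a repeat of the letters GAAA, in the promoters of its targets. Interferon gamma acts through a separate receptor, and is the stronger inducer of immunity-related GTPases and guanylate-binding proteins. The targets include sensors of foreign nucleic acid, antiviral effectors and regulators that amplify or stop the response. In the thymus, interferons are known to be made by medullary epithelium without infection, and thymocytes acquire part of this programme as they mature.

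The ISRE core was searched as GAAANNGAAA on both strands of the RefSeq promoters (250 bases before to 50 after each start, build GRCm38.p6). Of the 36 members, 27 were in the table, and 15 of them held the core (55.6%), against 1079 of 27025 genes (4.0%). With a C required after the leading repeat, 10 of 27 members (37.0%) and 0.8% of all genes matched. The core is also the repeat bound by interferon regulatory factors, so the search does not tell these elements apart. The windows below are from members whose signals are described here and are printed on the strand of the gene, with the core in capitals (it reads TTTCNNTTTC where it lies on the opposite strand). Ifit1 and Ifit3 had 2 matches each, whereas neither of the 2 promoter windows of their neighbour Ifit2 had one. Of the 14 tested members with a match 9 rose in at least 1 selected population, and Bst2, Ifitm2, Ifitm3, Stat2 and Gbp3 rose in none. Of the 12 without a match 8 rose in at least 1 (Samhd1, Irf7, Isg20, Oasl1, Oasl2, Trim25, Ifi47 and Lgals3bp), and Ifit2, Adar, Ifitm1 and Ifi35 rose in none.
Ifit1, chr19:34640765-34640814, plus strand: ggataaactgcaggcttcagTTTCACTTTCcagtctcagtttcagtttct
Ifit1, chr19:34640784-34640833, plus strand: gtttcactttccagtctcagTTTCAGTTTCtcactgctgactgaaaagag
Ifit3, chr19:34583353-34583402, plus strand: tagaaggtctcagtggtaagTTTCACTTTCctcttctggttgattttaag
Ifit3, chr19:34583387-34583436, plus strand: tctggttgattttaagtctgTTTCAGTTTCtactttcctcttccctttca
Ifih1, chr2:62646206-62646243, minus strand: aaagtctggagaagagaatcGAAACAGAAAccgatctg
Cxcl10, chr5:92349073-92349122, minus strand: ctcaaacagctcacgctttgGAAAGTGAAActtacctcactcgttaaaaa
Gbp2, chr3:142620584-142620633, plus strand: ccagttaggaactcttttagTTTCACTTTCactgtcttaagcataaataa
Igtp, chr11:58199502-58199551, plus strand: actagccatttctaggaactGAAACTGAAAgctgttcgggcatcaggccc
Irgm1, chr11:48871415-48871464, minus strand: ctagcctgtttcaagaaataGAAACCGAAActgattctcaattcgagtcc

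Values are MAS 5.0 signals on a linear scale with a trimmed mean of about 150 on every array. Fold changes are differences of log2 signals after each array was standardized, with their standard error (SE), and a member was called at a limma p adjusted over all 12838 probesets kept of under 0.05. Arrays were hybridized on 9 days, and RNA quality differed between them. The 3' to 5' ratio of the Gapdh control was 57.2 and 40.9 on NOD S+ arrays 1 and 2 and 29.4 on B10 S+ array 1, against 2.19 to 28.9 on the other 21 arrays. An actin control ranked them differently, with 55.7 and 30.6 on NOD S+ arrays 1 and 2 and 8.89 on B10 S+ array 1. It gave 32.5 on NOD PreS TCR insHEL array 1. Ratios named below are those of Gapdh. Thymocyte markers summed to between 5592 and 15212 on all arrays, and the markers of thymic epithelium to at most 227.

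In both strains, interferon-induced genes were higher in selected thymocytes than in PreS cells. In NOD S- cells, 18 of the 35 members rose and none fell against NOD PreS cells, where 5.75% of all 7831 genes rose and 5.87% fell. In NOD S+ cells, 8 rose and none fell, against 6.79% and 8.4% of all genes. In B10 S- cells, 18 rose and none fell, against 5.03% and 7.34% of all genes, and in B10 S+ cells, 21 rose and 1 fell, against 8.26% and 9.86%. The median change over the 35 members was 1.56 in NOD S-, 0.75 in NOD S+, 1.04 in B10 S- and 1.04 in B10 S+ cells on the log2 scale, and the median over all kept genes was between 0.01 and 0.05 in these comparisons. Since 6 members could pass the signal filter only where they were high, counts were also taken over the 29 passing in a PreS condition. Of these, 14 rose in NOD S-, 5 in NOD S+, 15 in B10 S- and 18 in B10 S+ cells. In B10 S+ cells 1 of them fell, and none did in the other populations. The share called among all genes passing in a PreS condition was not taken, so these counts have no background beside them. S- and S+ cells of a strain were set against the same PreS arrays. In pooled cells, a larger share of cells with a transcript and more transcript per cell cannot be told apart.

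**Figure D1:**
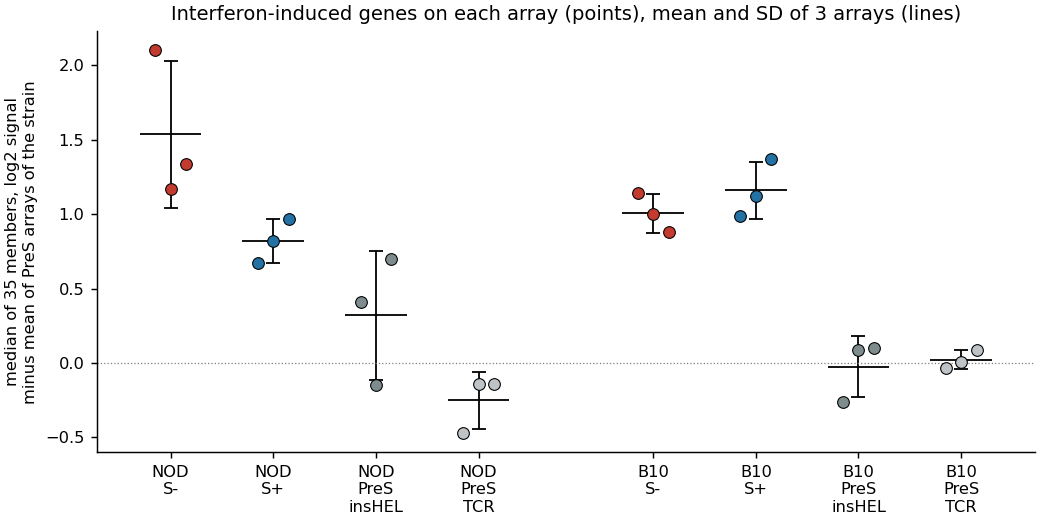
Median over the 35 tested members of the log2 signal minus the mean of the 6 PreS arrays of the same strain (y axis) on each of 24 arrays (points), by population (x axis), with the mean and SD of 3 arrays as lines. All S- and S+ arrays except NOD S+ array 1 lie above every PreS array, and that array, at 0.67, lies below NOD PreS TCR insHEL array 3 at 0.70.

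Array by array, the median over members stood at 2.10, 1.17 and 1.34 in NOD S- pools and at 0.67, 0.82 and 0.97 in NOD S+ pools above the mean of NOD PreS cells. In B10 it was 1.14, 1.00 and 0.88 in S- pools and 0.99, 1.12 and 1.37 in S+ pools. NOD PreS pools were the more spread, with 0.41, -0.15 and 0.70 in PreS TCR insHEL and -0.47, -0.14 and -0.14 in PreS TCR pools, whereas the 6 B10 PreS pools lay between -0.26 and 0.10. NOD S- array 1 was the highest of all 24, and without it the count of members called in NOD S- against PreS cells fell to 7. The count in NOD S+ cells was 13 without NOD PreS TCR insHEL array 3 and 5 without NOD S+ array 1. These counts were not set against the number of all probesets called in the same fits. The moves are therefore not shown to be particular to the members. Leaving out the 3 arrays of highest 3' to 5' ratio left 1 NOD S+ array, so no count is given for that fit.

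Within a single hybridization day, B10 S+ cells were higher than B10 PreS cells in 28 and 29 of 35 members on the 2 days that held both (median 1.44 and 1.07 log2), and B10 S- cells in 31 on the 1 such day (median 1.23). NOD S+ cells were higher than NOD PreS cells in 29 of 35 on 1 day (median 1.07), and no day held both NOD S- and NOD PreS arrays. With hybridization day as a block, 8 members were called in B10 S- and 19 in B10 S+ cells, where 301 and 1115 of all 12838 probesets were called. No member was called in NOD S- or NOD S+ cells with this block, where 0 and 5 of all probesets were called.

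**Figure D2:**
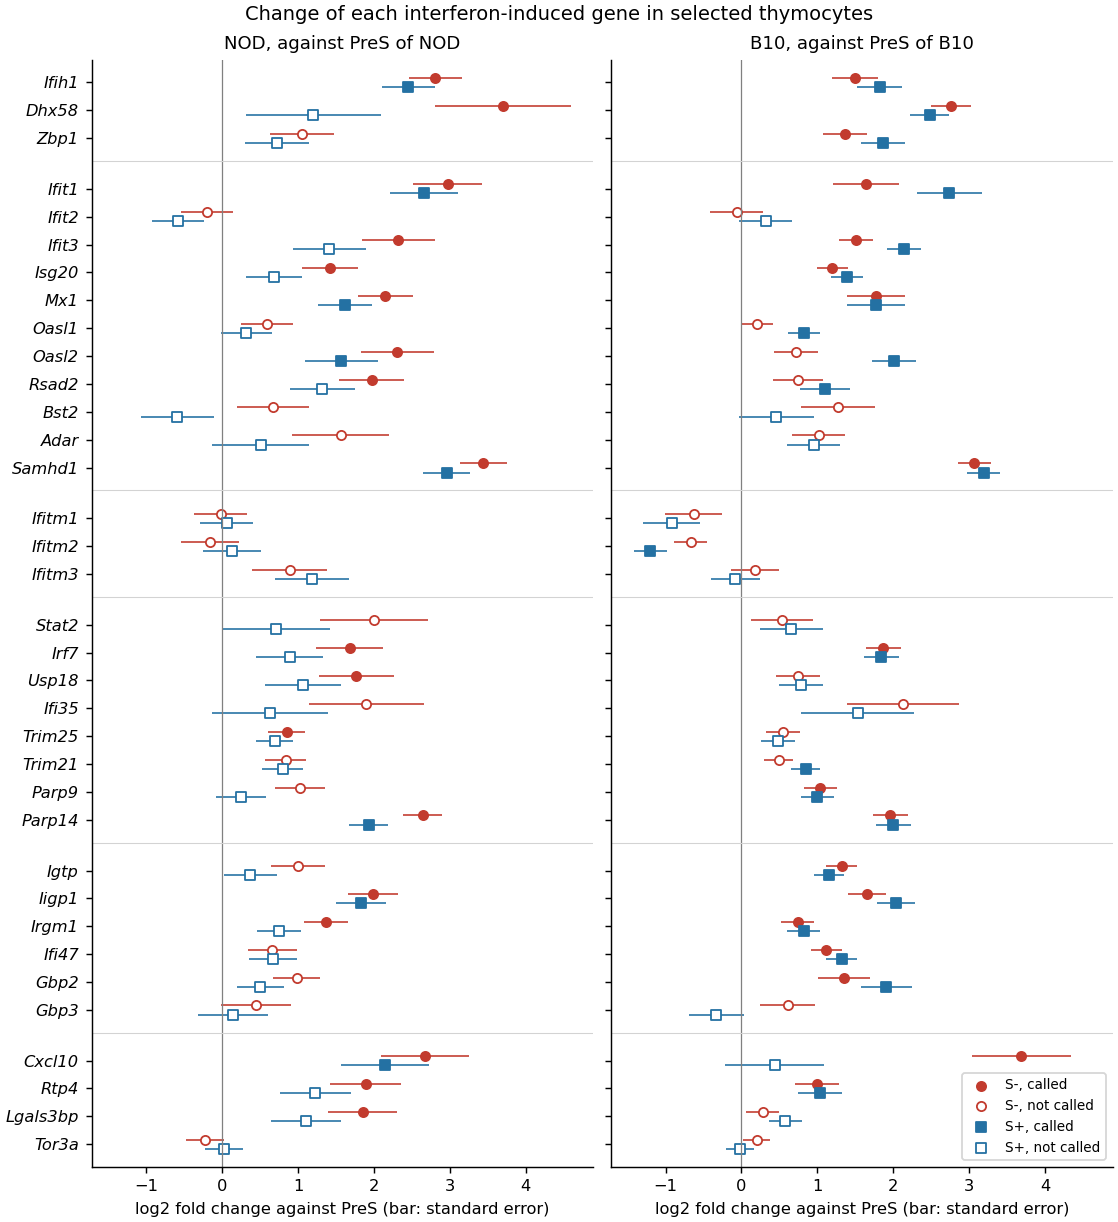
Log2 fold change against PreS of the same strain (x axis, bars are SE) for the 35 tested members (y axis, grouped from top to bottom as sensors, antiviral effectors, membrane proteins, signalling and feedback, GTPases and others) in S- (circles) and S+ (squares), NOD left and B10 right; filled symbols passed the adjusted p. Samhd1, Ifih1, Ifit1, Parp14, Mx1 and Iigp1 are filled for both populations in both strains, and the Ifitm genes and Ifit2 lie near or below 0 in B10.

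Among the sensors of foreign nucleic acid, Ifih1, the helicase that recognises long double-stranded RNA in the cytosol, rose in all 4 selected populations. Its signal was 527.5, 405.1 and 369.9 in NOD S- and 389.2, 434.1 and 203.4 in NOD S+ cells, against a lowest, median and highest of 33.1, 53.6 and 101.4 in the 6 NOD PreS pools. In B10 it was 378.6, 411.5 and 327.1 in S- and 393.8, 494.2 and 489.6 in S+ cells, against 60.4, 130 and 222 in PreS pools. No selected pool overlapped the PreS pools of its strain, and the log2 changes were 2.81 (SE 0.35, limma adjusted p = 0.00023) in NOD S-, 2.45 (SE 0.35, adjusted p = 0.00092) in NOD S+, 1.50 (SE 0.30, adjusted p = 0.0051) in B10 S- and 1.82 (SE 0.30, adjusted p = 0.00083) in B10 S+ cells. Dhx58, a related helicase that modulates sensing, had a signal of 138.4, 70 and 116 in NOD S- and 6, 19.8 and 70.4 in NOD S+ cells, against 2.2 to 43.4 in NOD PreS pools. In NOD S+ cells the single pool above all PreS pools was array 3, whose 3' to 5' ratio was 3.63, and the change of 1.20 (SE 0.89) was not called. In B10 S- cells Dhx58 was 153.6, 152.4 and 158.8 and in B10 S+ cells 103.9, 161 and 118.2, against 14.6 to 36.8 in PreS pools, a rise by 2.76 (SE 0.26) and 2.48 (SE 0.26) on the log2 scale. A dimmer probeset of Dhx58 did not follow, with changes of 0.10, 0.26, 0.30 and 0.18 in NOD S-, NOD S+, B10 S- and B10 S+ cells. Zbp1, a sensor of nucleic acid in the Z form, rose in B10 S- cells by 1.36 and in B10 S+ cells by 1.86 on the log2 scale, while its changes of 1.05 and 0.72 in NOD S- and NOD S+ cells were not called. A dimmer probeset of Zbp1 was called in B10 S+ (1.03, limma adjusted p = 0.0044) and not in B10 S- cells (0.64, limma adjusted p = 0.076).

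Of 11 antiviral effectors tested, 7 rose in NOD S-, 4 in NOD S+, 5 in B10 S- and 8 in B10 S+ cells. Samhd1, which hydrolyses deoxynucleotides and so starves viral reverse transcription, had the lowest adjusted p of any member in all 4 comparisons with PreS cells. Its signal was 385.2, 379.7 and 434.3 in NOD S- and 269.5, 311.2 and 257.8 in NOD S+ cells, against 15.2, 36.9 and 48.5 as the lowest, median and highest of NOD PreS pools. In B10 it was 349.4, 372.3 and 384.4 in S- and 402.2, 351.2 and 442.4 in S+ cells, against 27.6, 44.3 and 58.7 in PreS pools. The 12 selected pools thus stood apart from the 12 PreS pools, by 3.44 (SE 0.31, limma adjusted p = 3.4e-05), 2.96 (SE 0.31), 3.07 (SE 0.22) and 3.19 (SE 0.22, adjusted p = 7.7e-07) on the log2 scale in NOD S-, NOD S+, B10 S- and B10 S+ cells. The other 3 kept probesets of Samhd1 were dimmer and had positive changes of 0.64 to 4.25 in these comparisons. Of these, 1 was not called in NOD S- (1.19, limma adjusted p = 0.175) or B10 S- cells (0.64, limma adjusted p = 0.289). Another was not called in NOD S- cells (1.85, limma adjusted p = 0.0735).

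The Ifit genes, neighbours on the chromosome whose products bind foreign RNA, did not move as one. Ifit1 had signals of 411.7, 384.5 and 319.9 in NOD S- and 345.5, 451.4 and 155 in NOD S+ cells, against 22.7, 35.9 and 87.8 as the lowest, median and highest of NOD PreS pools. In B10, Ifit1 was 140.2, 148.1 and 299.1 in S- and 650.1, 167 and 533.8 in S+ cells, against 27.3, 53.7 and 83.1 in PreS pools. It rose in all 4 populations with no overlap, by 2.97 (SE 0.45), 2.66 (SE 0.45), 1.64 (SE 0.43) and 2.74 (SE 0.43) on the log2 scale in NOD S-, NOD S+, B10 S- and B10 S+ cells. Ifit3 rose by 2.32 (SE 0.48) in NOD S-, where array 1 gave 495.4 and the others 134.2 and 115, by 1.51 (SE 0.22) in B10 S- and by 2.14 (SE 0.22) in B10 S+ cells, and its change of 1.41 (SE 0.48, limma adjusted p = 0.067) in NOD S+ cells was not called. Ifit2 was 186.3, 103.5 and 101.2 in NOD S- and 98.7, 84.3 and 113.2 in NOD S+ cells, against 81.2, 150 and 191.2 in NOD PreS pools. In B10 it was 95.6, 81.3 and 100.6 in S- and 107.1, 93.6 and 160.5 in S+ cells, against 41.8, 95.2 and 180.5 in PreS pools, so that all groups overlapped. The changes of Ifit2 were -0.20, -0.58, -0.06 and 0.32 in NOD S-, NOD S+, B10 S- and B10 S+ cells, each with an SE of 0.34 or 0.35.

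**Figure D3:**
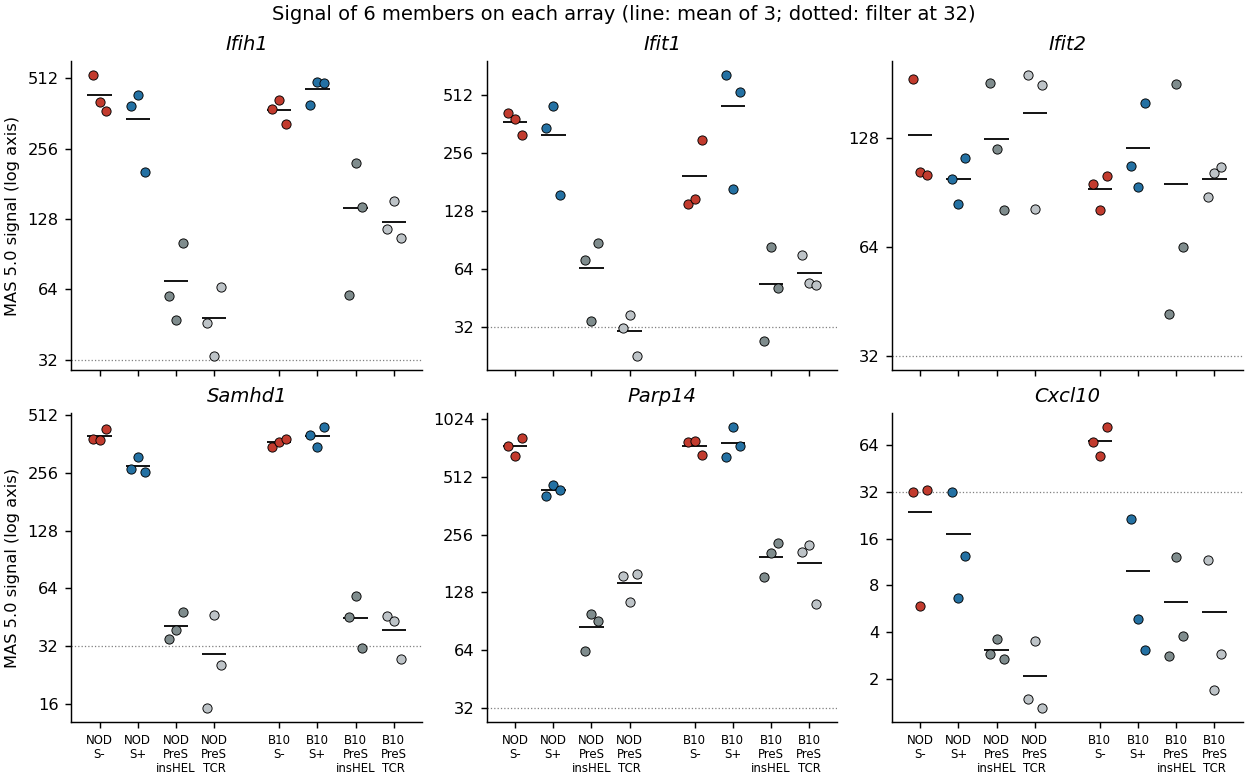
MAS 5.0 signal (y axis, log scale) of 6 members on each of 24 arrays (points), by population (x axis), with the mean of 3 arrays as a line and the signal of 32 dotted. Ifih1, Ifit1, Samhd1 and Parp14 separate S- and S+ from PreS pools in both strains, Ifit2 does not, and Cxcl10 reaches 54.4 or more only in B10 S- pools.

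The exonuclease Isg20 rose in NOD S- (1.42, SE 0.37), B10 S- (1.20, SE 0.21) and B10 S+ cells (1.39, SE 0.21), with signals of 701.8, 411.6 and 476 in NOD S- cells and a change of 0.68 (SE 0.37) in NOD S+ cells that was not called. Mx1, a GTPase that blocks influenza viruses, rose in all 4 populations by 1.62 to 2.15 on the log2 scale, although its mean stayed between 48.9 and 77.7 there, against means of 13.4 in NOD PreS and 17.3 in B10 PreS cells. Oasl2, an oligoadenylate synthetase-like protein, reached 222, 75.5 and 92.3 in NOD S- and 72.4, 94.9 and 53.1 in NOD S+ cells, against 9.2 to 59.2 in NOD PreS pools, and rose in both (2.31, SE 0.48, and 1.57, SE 0.48), the NOD S+ call being lost in 8 of 12 fits that left out 1 array. In B10 cells Oasl2 rose in S+ (152.8, 79.7 and 212.1, change 2.01, SE 0.29) and not detectably in S- cells (63, 47.5 and 65.4, change 0.72, SE 0.29, limma adjusted p = 0.14), against 20 to 41.6 in B10 PreS pools. Rsad2, which makes a chain-terminating nucleotide, rose in NOD S- (1.97, SE 0.43) and B10 S+ cells (1.10, SE 0.33, limma adjusted p = 0.036), where the lowest S+ pool gave 215 and the highest B10 PreS pool 213.7. The B10 S+ call of Rsad2 was lost in 5 of 12 fits that left out 1 array. Oasl1, a relative of Oasl2, rose in B10 S+ cells by 0.83 (SE 0.21) and was not called in the other 3 populations. Bst2, which tethers budding virions, and Adar, which edits double-stranded RNA, were called against PreS in no population, with changes of -0.59 to 1.27 and 0.51 to 1.56.

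The interferon-induced membrane proteins Ifitm1, Ifitm2 and Ifitm3 hinder the entry of viruses. None of the 3 rose in any population, and Ifitm2 was the single member that fell. It stood at 74.4, 57.6 and 69.8 in B10 S- and 53.4, 31.9 and 53.8 in B10 S+ cells, against 80.1, 98.6 and 117.4 as the lowest, median and highest of B10 PreS pools. The S+ pools lay below all PreS pools, a fall by 1.20 (SE 0.22, limma adjusted p = 0.0017), and the change of -0.67 (SE 0.22, adjusted p = 0.069) in S- cells missed the threshold. In NOD the changes of Ifitm2 were -0.16 (SE 0.38) in S- and 0.13 (SE 0.38) in S+ cells. Ifitm3 was the brightest of the 3, with 234.6, 118.5 and 139.5 in NOD S- and 294.8, 273.6 and 83 in NOD S+ cells, against 31 to 152.7 in NOD PreS pools, and overlapped between groups in both strains. Its changes were 0.89 (SE 0.49) in NOD S-, 1.18 (SE 0.49) in NOD S+, 0.18 (SE 0.32) in B10 S- and -0.08 (SE 0.32) in B10 S+ cells. The difference between strains in the change of Ifitm2 from PreS to S+ was 1.34 (SE 0.45, limma adjusted p = 0.28), which did not pass.

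Among 8 regulators of signalling and feedback, 4 rose in NOD S-, 1 in NOD S+, 3 in B10 S- and 4 in B10 S+ cells. Parp14, an ADP-ribosyltransferase, was called in all 4. Its signal was 739.7, 653.5 and 814.1 in NOD S- and 406.1, 462.3 and 435.6 in NOD S+ cells, against 63.4, 106 and 159.2 as the lowest, median and highest of NOD PreS pools. In B10 it was 771, 785.7 and 666.5 in S- and 647, 923.8 and 734.8 in S+ cells, against 112.1, 207 and 230.5 in PreS pools. Its changes were 2.64 (SE 0.26), 1.93 (SE 0.26), 1.96 (SE 0.23) and 2.00 (SE 0.23) in NOD S-, NOD S+, B10 S- and B10 S+ cells. Irf7, the transcription factor that amplifies interferon production, was 497.1, 360.8 and 445.4 in B10 S- and 300.7, 469.2 and 528.3 in B10 S+ cells, against 76.9 to 142.4 in B10 PreS pools, a rise by 1.87 (SE 0.23) and 1.84 (SE 0.23) with no overlap. In NOD, Irf7 was 526, 229.7 and 201.1 in S- and 132.6, 144.9 and 254.8 in S+ cells, and 1 PreS TCR insHEL pool gave 234.6 where the other 5 PreS pools gave 57 to 78.7. The NOD S- change of 1.68 (SE 0.44) was called and that of 0.89 (SE 0.44) in NOD S+ cells was not. Usp18, which removes Isg15 from proteins and shuts off the interferon receptor, rose in NOD S- cells by 1.77 (SE 0.50, limma adjusted p = 0.036), a call lost in 8 of 12 fits that left out 1 array. Parp9, the partner of Parp14, rose in B10 S- (1.04, SE 0.22) and B10 S+ cells (1.00, SE 0.22). Trim25, a ubiquitin ligase of the RNA sensing pathway, rose in NOD S- cells (0.85, SE 0.24), a call lost in 6 of 12 fits that left out 1 array. Its dimmer kept probesets were not called there (1.10, limma adjusted p = 0.053, and 0.45, limma adjusted p = 0.37). The dimmest of them rose in B10 S- cells (0.77, limma adjusted p = 0.026). Trim21, a ubiquitin ligase that binds antibody, rose in B10 S+ cells (0.85, SE 0.19), where a dimmer probeset of Trim21 gave 0.25. That probeset was lower in NOD than in B10 PreS cells (-0.89, limma adjusted p = 0.025). Stat2, a subunit of the complex that binds the ISRE, had mean signals of 14.2 to 51.8 over the 6 groups and was not called, and neither was Ifi35.

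The immunity-related GTPases and guanylate-binding proteins, which attack the vacuoles of intracellular microbes, had 6 members on the array with a signal above the filter, and 2 rose in NOD S-, 1 in NOD S+, 5 in B10 S- and 5 in B10 S+ cells. Iigp1 was 353.7, 172.4 and 265.8 in NOD S- and 204.7, 329.6 and 166.6 in NOD S+ cells, against 36.6, 60.4 and 95.1 as the lowest, median and highest of NOD PreS pools. In B10 it was 316.8, 280 and 292.4 in S- and 270.2, 456.2 and 460.9 in S+ cells, against 64.8, 83.3 and 131.1 in PreS pools. It rose by 1.65 to 2.04 on the log2 scale in the 4 populations, with no overlap. A dimmer probeset of Iigp1 was called in NOD S- (2.81), B10 S- (1.99) and B10 S+ cells (2.23). In NOD S+ cells that probeset was not called (2.34, limma adjusted p = 0.0533). Igtp was already bright in PreS cells (354.7 to 720.7 in NOD, 542.7 to 810.2 in B10) and rose in B10 S- (1.32, SE 0.20) and B10 S+ cells (1.15, SE 0.20). In NOD cells its changes of 1.00 (SE 0.35) in S- and 0.37 (SE 0.35) in S+ cells were not called, and NOD S+ array 1 gave 359 where the others gave 861.5 and 925.2. Irgm1, a regulator of the other GTPases, rose in NOD S- (1.37, SE 0.29), B10 S- (0.74, SE 0.22) and B10 S+ cells (0.82, SE 0.22), the B10 S- call being lost in 7 of 12 fits that left out 1 array. Ifi47 and Gbp2 rose in both B10 populations, by 1.12 and 1.35 in S- and by 1.32 and 1.91 in S+ cells, and a second probeset of Gbp2 was called in all 4 populations (1.72 in NOD S-, 0.84 in NOD S+, 1.57 in B10 S- and 1.98 in B10 S+ cells). Gbp3 stayed at means of 35.6 to 67.3 and was not called.

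Of the 4 other members, Rtp4, a receptor transporter protein, rose in NOD S- (853, 625.8 and 640, change 1.89, SE 0.47), B10 S- (1169.1, 649.4 and 652.1, change 0.99, SE 0.29) and B10 S+ cells (795.7, 865.7 and 802.4, change 1.04, SE 0.29), against 94.8 to 386.1 in NOD PreS and 247.9 to 579.1 in B10 PreS pools. The B10 S- call of Rtp4 was lost in 10 of 12 fits that left out 1 array. Lgals3bp, a secreted galectin ligand, rose in NOD S- cells (659.5, 361 and 296.1, against 44.6 to 274.5 in NOD PreS pools, change 1.85, SE 0.46) and was not called in B10 cells, whose PreS pools were at 215.6 to 351.2. Tor3a, of the torsin family, stayed at means of 30.2 to 41.8 in all groups, while its other kept probeset was called in NOD S+ cells (1.05, limma adjusted p = 0.031). Over the members of both strains, which were fitted on different arrays, the changes across the 35 genes had a Pearson r of 0.76 and a Spearman rho of 0.72 in S- and of 0.66 and 0.62 in S+ cells, as a description across genes that are not independent. Of the 18 members that rose in NOD S- cells, 13 were also among the 18 that rose in B10 S- cells. This overlap and these correlations were not set against those of all genes, so they are not shown to be particular to the members.

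Negative against positive selection gave few calls, among members and among all genes. In B10, 1 member was called higher in S- than in S+ cells and none lower, against 1.56% and 0.396% of all genes, and the median over members was -0.06. The dimmest kept probeset of Trim25 was also called higher in B10 S- cells (1.04, limma adjusted p = 0.042). In NOD no member was called by limma, against 0% of all genes in either direction, with 3 of 35 at an unadjusted p under 0.05. The NOD members nevertheless lay to one side, with a median of 0.53 and 30 of 35 above 0, against a median of 0.02 over all kept genes. NOD S- cells were higher than NOD S+ cells in 34 of 35 members on 1 hybridization day (median 0.80) and in 24 on another (median 0.17), and in B10 the 2 days with both gave 0.03 and 0.06. NOD S+ arrays 1 and 2 had the highest 3' to 5' ratios of Gapdh of all arrays. The pair of the NOD day with the median of 0.80 had ratios of 2.90 (NOD S- array 1) and 3.63 (NOD S+ array 3). On the NOD day with the median of 0.17 they were 12.9 (NOD S- array 2) and 57.2 (NOD S+ array 1). The part of RNA quality in the NOD shift was not tested. The strain difference of this change had a median of 0.72 over members with no member called, against 0.192% of all genes, and 3 members at an unadjusted p under 0.05 (Oasl2, Cxcl10 and Ifit3).

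The member called in B10 S- against S+ cells was Cxcl10, a chemokine that attracts activated T cells through the receptor Cxcr3. Its signal was 66.7, 54.4 and 82.9 in B10 S- and 21.5, 4.9 and 3.1 in B10 S+ cells, and 1.7, 3.35 and 12.1 were the lowest, median and highest of B10 PreS pools. In NOD it was 32, 5.9 and 32.9 in S- and 32, 6.6 and 12.4 in S+ cells, against 1.3 to 3.6 in PreS pools. The B10 S- pools alone stood above all other 21 arrays. The change against S+ was 3.25 (SE 0.75, limma adjusted p = 0.045) in B10 and 0.52 (SE 0.67) in NOD cells, and against PreS it was 2.67 (SE 0.58) in NOD S-, 2.15 (SE 0.58) in NOD S+ and 3.69 (SE 0.65) in B10 S- cells. With signals under 16 set to 16, the NOD changes of Cxcl10 against PreS were 0.52 in S- and 0.18 in S+ cells, and neither was called. For S- against S+ the strains differed by -2.73 (SE 1.08, limma adjusted p = 0.52) and did not pass. Most Cxcl10 signals were under 32, where log2 changes depend on small differences in signal, and the B10 call was lost in 13 of 22 alternative fits, among them 8 of 12 that left out 1 array.

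**Figure D4:**
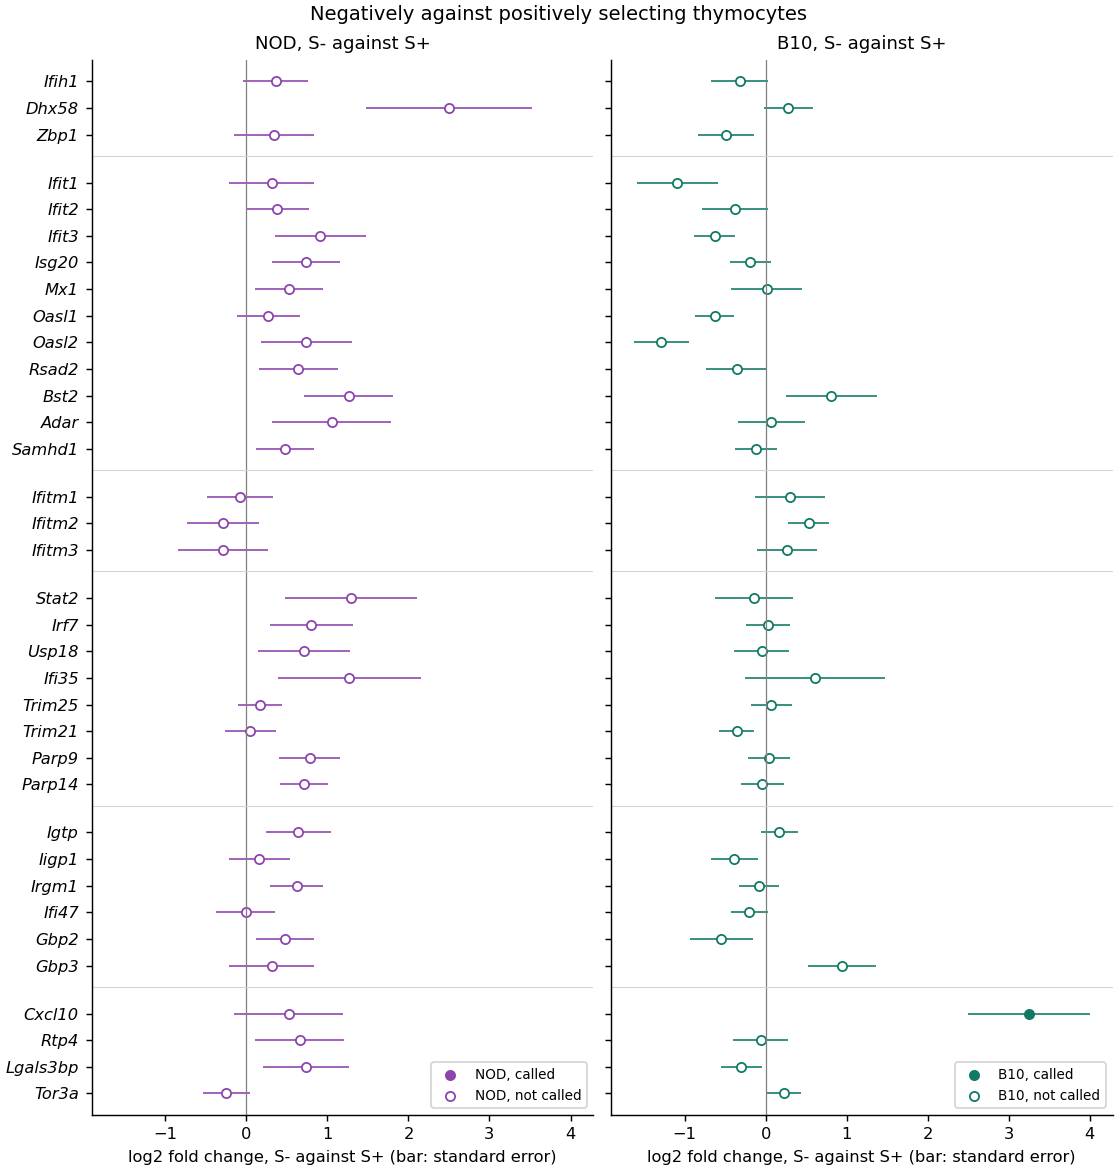
Log2 fold change of S- against S+ cells (x axis, bars are SE) for the 35 tested members (y axis, in the same role groups), NOD left and B10 right; filled symbols passed the adjusted p. Of the NOD members 30 lie above 0 and none is filled, and in B10 Cxcl10 is the one filled symbol.

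Between strains, PreS cells of NOD had lower signals of most members than PreS cells of B10. The median over the 35 members was -0.49 on the log2 scale, 30 lay below 0 and 14 had an unadjusted p under 0.05. The share of all genes under that unadjusted p was not taken, in this or any other comparison. Such counts therefore have no background. After adjustment 1 was higher and 4 were lower in NOD, against 1.79% and 2.54% of all genes. Usp18 was 43.4, 32.4 and 166.3 in NOD PreS TCR insHEL and 29.6, 31.5 and 44 in NOD PreS TCR pools, against 90.2, 135 and 191 as the lowest, median and highest of B10 PreS pools, a difference of -1.51 (SE 0.35, limma adjusted p = 0.012). Ifih1, at 33.1 to 101.4 in NOD and 60.4 to 222 in B10 PreS pools, differed by -1.11 (SE 0.28, limma adjusted p = 0.019). Lgals3bp differed by -1.24 (SE 0.30, limma adjusted p = 0.018) and Parp14 by -0.72 (SE 0.20, adjusted p = 0.037), both with overlapping pools, and the call of Parp14 was lost in 8 of 24 fits that left out 1 array. Ifi47 went the other way and its pools did not overlap. It was 1726, 1100.8 and 952.1 in NOD PreS TCR insHEL and 731.3, 878.7 and 687.7 in NOD PreS TCR pools, against 369.5, 441 and 537.3 as the lowest, median and highest of B10 PreS pools, a difference of 1.15 (SE 0.22, limma adjusted p = 0.0016). On single hybridization days the median over members was 0.08, -0.51 and -0.73, and with day as a block no member was called.

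In S+ cells 2 members were lower in NOD than in B10 and none higher, against 1.77% and 2.17% of all genes, with a median of -0.70 and 27 of 35 below 0. The second probeset of Gbp2 was also lower in NOD S+ than in B10 S+ cells, by -1.29 (limma adjusted p = 0.00062), which made 3 members with any probeset called. Igtp was 359, 861.5 and 925.2 in NOD S+ cells, against 1290.6, 1667.5 and 1860.9 in B10 S+ cells, a difference of -1.25 (SE 0.33, limma adjusted p = 0.037) with no overlap. Bst2 was 14.3, 30.3 and 73.2 in NOD S+ cells, against 59, 177.1 and 186.5 in B10 S+ cells, a difference of -2.13 (SE 0.59, limma adjusted p = 0.045) with overlapping pools. Of 24 fits that left out 1 array, 14 lost the call of Bst2 and 3 that of Igtp. Neither call held with the 3' to 5' ratio as a covariate, and no hybridization day held S+ arrays of both strains. Without the 3 arrays of highest ratio, which leaves 1 NOD S+ array, the differences were -0.95 for Igtp and -1.37 for Bst2. In S- cells no member was called by limma in either direction, against 2.32% of all genes, with 5 at an unadjusted p under 0.05 and a median of -0.11. Cxcl10 was 32, 5.9 and 32.9 in NOD S- cells, against 66.7, 54.4 and 82.9 in B10 S- cells, without overlap and with a difference of -1.89 (SE 0.76, limma adjusted p = 0.23).

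**Figure D5:**
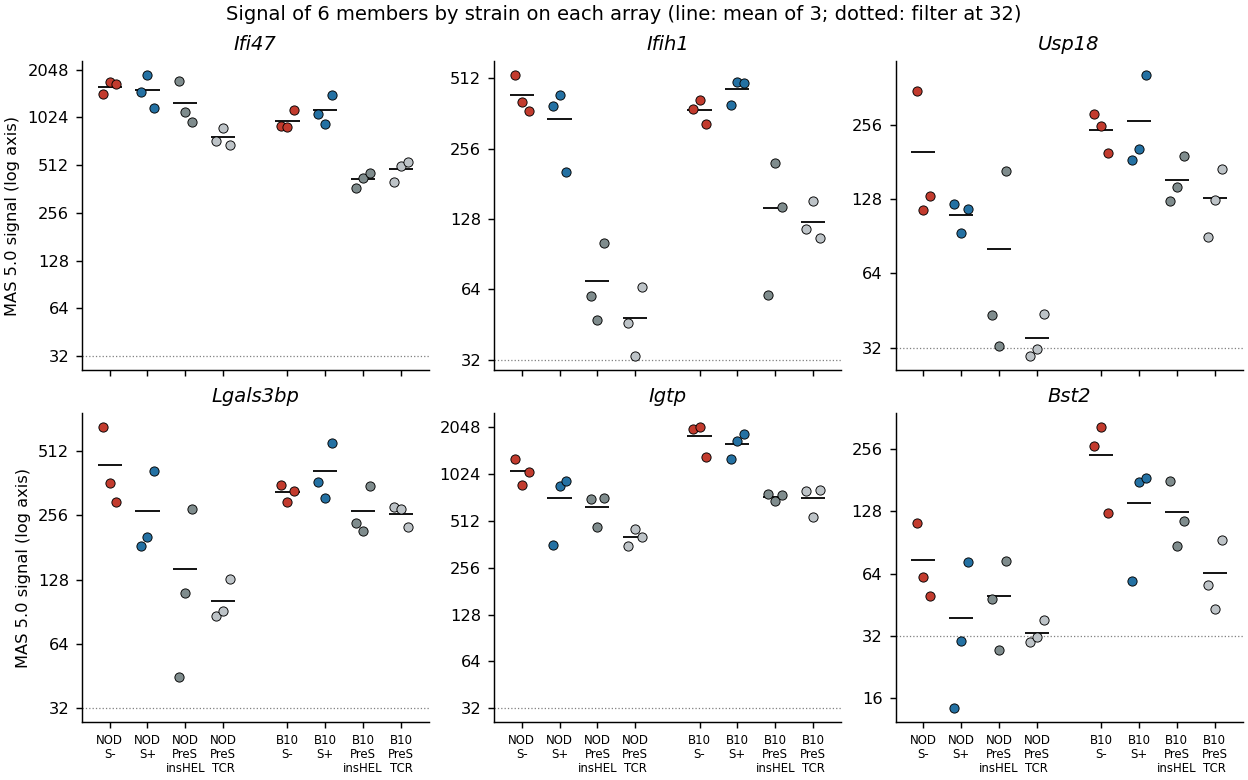
MAS 5.0 signal (y axis, log scale) of 6 members on each of 24 arrays (points), by population (x axis), with the mean of 3 arrays as a line and the signal of 32 dotted. Ifi47 is higher in every NOD PreS pool than in every B10 PreS pool, Usp18 and Lgals3bp are lower in each NOD PreS pool than in every B10 PreS pool except in NOD PreS TCR insHEL array 3, and Igtp is lower in all NOD S+ than in all B10 S+ pools.

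Whether the response to selection itself differed between strains was asked with the difference of the changes. For S- against PreS no member was called, against 0.0894% of all genes, with a median of 0.38 over members and 4 at an unadjusted p under 0.05, of which Lgals3bp (1.57, SE 0.53), Ifih1 (1.31, SE 0.48) and Oasl2 (1.59, SE 0.59) had the lowest. For S+ against PreS no member was called, against 0.46% of all genes, with a median of -0.15 and 3 at an unadjusted p under 0.05 (Ifitm2, Gbp2 and Zbp1). A member that was called in one strain and not in the other was therefore not shown to differ between them.

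PreS cells with and without the antigen transgene were also compared. In NOD, PreS TCR insHEL cells had higher member signals than PreS TCR cells in 28 of 35 members, with a median of 0.62 against -0.02 over all kept genes. No member was called, against 0.0128% of all genes, and 8 had an unadjusted p under 0.05, a count without a share over all genes. Rtp4 was 386.1, 153.5 and 376.8 in NOD PreS TCR insHEL cells, against 94.8, 131.1 and 99.2 in NOD PreS TCR cells, a difference of 1.43 (SE 0.39, limma adjusted p = 0.38). Zbp1 was 84.7, 81.3 and 121.6, against 20.8, 57.6 and 46.3 in NOD PreS TCR cells, a difference of 1.32 (SE 0.34, limma adjusted p = 0.37). Pools of the 2 genotypes did not overlap for these genes, and Parp14 ran the other way (63.4, 98.6 and 90.5 in NOD PreS TCR insHEL cells, against 155.8, 113.5 and 159.2 in NOD PreS TCR cells). In B10 the median was 0.02 with no member called by limma, against 0% of all genes, and Dhx58 alone had an unadjusted p under 0.05. With the PreS arrays of the same mice in place of the merged 6, 7 members were called in NOD S- and 12 in NOD S+ cells.

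Genes upstream of the members gave further context. Of 10 interferon genes listed, 7 had a probeset and none passed the signal filter. The highest signal on any of 24 arrays was 55.3 for Ifnab, 34.4 for Ifnb1 and 29.4 for Ifng, and Ifna1, Ifna2, Ifna4 and Ifna5 stayed at or below 27.4. Of 16 receptors and proximal signalling genes kept, 4 rose in NOD S-, 7 in NOD S+, 4 in B10 S- and 6 in B10 S+ cells. In B10 S- cells 2 fell, and in each of the other 3 populations 1 fell. Irf9, the DNA-binding subunit of the complex that recognises the ISRE, rose by 2.07 (SE 0.32) in NOD S-, 1.76 (SE 0.32) in NOD S+, 0.85 (SE 0.23) in B10 S- and 1.37 (SE 0.23) in B10 S+ cells, with means of 392 and 310 in NOD S- and NOD S+ against 91.7 in NOD PreS cells. Irf1 and the kinases Tyk2 and Jak2 also rose in all 4 populations, Irf1 by 1.06 to 1.37 on the log2 scale. The receptor chain Ifngr1 fell in all 4, by 1.24 to 1.45, whereas Ifngr2 rose in NOD S+ (0.98, SE 0.25) and B10 S+ cells (1.26, SE 0.33), and Ifnar1 rose in B10 S+ cells (0.92, SE 0.22). At PreS, Irf9 was lower in NOD than in B10 cells (-0.80, SE 0.23, limma adjusted p = 0.049).

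Of 8 sensing adaptors, kinases and receptors kept, 3 rose in NOD S-, 3 in NOD S+, 4 in B10 S- and 4 in B10 S+ cells, and none fell. Ikbke, a kinase that activates interferon regulatory factors, rose by 2.35 (SE 0.41) in NOD S-, 1.95 (SE 0.41) in NOD S+, 1.46 (SE 0.24) in B10 S- and 2.02 (SE 0.24) in B10 S+ cells. Tlr7, an endosomal receptor of single-stranded RNA, had means of 59.2 and 46.2 in NOD S- and NOD S+ cells, against 5.23 in NOD PreS cells, and of 53.3 and 62.9 in B10 S- and B10 S+ cells, against 8.65 in B10 PreS cells, and was called in all 4. Myd88, its adaptor, rose by 0.77 to 1.00.

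Transcripts of other cells could reach sorted pools, and their markers were summed on each array. The 11 markers of macrophages and conventional dendritic cells summed to 1603 to 3155 in NOD S- and 3243 to 4843 in NOD S+ pools, against 1324 to 3245 in NOD PreS pools, and to 980 to 2885 in B10 S- and 898 to 1858 in B10 S+ pools, against 1204 to 3711 in B10 PreS pools. Of the 9 kept, 3 rose in NOD S+ cells (Csf1r by 2.37, Adgre1 by 1.12 and Itgax by 1.07 on the log2 scale) and none in the other 3 populations, and 3 were higher in NOD S+ than in B10 S+ cells. In B10 the sums of S- and S+ pools overlapped those of PreS pools, and the highest sum was in a PreS pool. The 6 markers of plasmacytoid dendritic cells, the main source of interferon in infection, summed to 340 to 467 in NOD S- and 394 to 507 in NOD S+ pools, against 513 to 833 in NOD PreS pools, and to 444 to 629 in B10 S- and 205 to 239 in B10 S+ pools, against 725 to 1713 in B10 PreS pools. The part of either cell type in the members' signals was not tested.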

How the data were processed

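Total RNA of sorted thymocytes was amplified in 2 rounds, biotin-labelled and hybridized to 24 Affymetrix mouse arrays of 3 pools for each of 8 conditions. The authors computed MAS 5.0 signal intensities, on a linear scale with each array set to a trimmed mean of 150, and deposited them for 22690 probesets. Per the file headers, arrays were hybridized on 9 days. Here, 64 control probesets were dropped, a value of 0 (33 of them) was replaced by 0.1, and each array's log2 signals were brought to equal mean and variance. In place of present calls, a probeset was kept where a condition had all 3 arrays at 32 or more, which left 12838 of 22626. Symbols came from the platform annotation, updated through RefSeq, and of the 22626 probesets other than controls 20380 had 1 symbol, 691 several and 1555 none.

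A gene was read by its kept probeset of highest mean signal, and brightness was not compared between genes. The linear models of limma 3.58.1 (R 4.3.3) were run within a strain, PreS populations merged, and over 24 arrays at once for strain differences. The threshold was a Benjamini-Hochberg p of 0.05 across probesets, and these p values measure the spread between pools, which may be partly technical. The fits were tested on simulated data. The number of arrays limits the precision: the median SE over members was 0.38 in NOD and 0.29 in B10 for S- and S+ against PreS. Members and gene lists were chosen with earlier results of these data known. In each role group the text gives the called members of lowest adjusted p with a mean signal of at least 100, all called members where 12 or fewer were called, and any that ran against the rest. Ifit2 and other members that were not called were chosen after their values were seen.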

Additional observations from a re-analysis of the deposited data

Results flagged for a closer look

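Of 70 groups of 6 PreS arrays examined over the members, 5 had 1 array far from the other 5 by Dixon's criterion on standardized log2 signals (critical value 0.625), and chance gives about 1 in 20. All 5 were in NOD. On linear signals the criterion gave 8 arrays, 7 in NOD and 1 in B10 (Ifitm1, 93.8 in PreS TCR insHEL array 2, against 20.9 to 43.1), and Ifitm2 was not among them. In NOD PreS TCR insHEL array 3, the signal of Irf7 was 234.6 where the other NOD PreS arrays gave 57 to 78.7, that of Usp18 was 166.3 against 29.6 to 44, and that of Oasl1 was 96.8 against 33 to 45.2. Adar was 6.4 in NOD PreS TCR insHEL array 1, the PreS array with the highest 3' to 5' ratio (28.9), against 47.1 to 63.8 in the others. Ifitm2 was 20.6 in NOD PreS TCR array 1, against 58 to 83.7 in the others.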

How the results depend on the processing

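Of 74 calls of a member in a comparison, 0 changed sign under the alternatives counted here. Quantile normalization kept all 74, the MAS 5.0 scaling alone 72, a floor of 16 also 72 and the 24-array fit 62 of 67. The methods' t-test kept 59, no filter 54, the PreS arrays of the same genotype 46 of 66 and hybridization day as a block 26. Leaving out 1 array lost 114 of 972. The day block gave 0 members in NOD S- and NOD S+ against PreS, 8 in B10 S- against PreS, 0 in B10 S- against S+, 0 in NOD against B10 at PreS and at S+, and 2 in NOD PreS TCR insHEL against PreS TCR, where 868 of 12838 probesets were called. In NOD S- against PreS, 11 members were called without the filter and 7 with the PreS arrays of the same genotype. In NOD S+ against PreS, 15 were called in the 24-array fit. Of all probesets tested, 846, 1704 and 2818 were called in these fits, in that order. The single call of B10 S- against S+ became 0 with the t-test, MAS 5.0 scaling alone, no filter or a filter at 64, and 2 with any kept probeset of a gene. NOD against B10 at S+, with 2 calls, had 1 with the t-test or MAS 5.0 scaling alone, 0 without the filter and 4 with a filter at 64. A floor of 16 gave 1 call in NOD against B10 at S- and 1 in the strain difference of S- against PreS. The cause of these changes was not tested.

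Chosen after seeing the data, leaving out the 3 arrays of highest 3' to 5' ratio left 1 NOD S+ array, so no count of called members is given for it. In that fit the NOD S+ changes against PreS were 1.88 for Parp14, 1.71 for Ifih1, 1.69 for Ifit1, 1.37 for Iigp1 and 1.24 for Mx1. The log2 ratio as a covariate, also chosen after seeing the data, gave 0 called members at S+ and 3 at PreS between strains. Same-numbered arrays of a strain did not deviate together (36 pairs, mean correlation 0.0508, 13 over 0.1), so the numbers were not taken as pairs. The replicate block gave 0 called members in B10 S- against S+ and 4 in NOD against B10 at S+, and changed no other count by over 1.5 times.

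With each array left out in turn, called members ran between 7 and 20 in NOD S- and 5 and 13 in NOD S+ against PreS, 14 and 19 in B10 S- and 18 and 22 in B10 S+ against PreS, 0 and 1 in B10 S- against S+, 3 and 7 in NOD against B10 at PreS and 0 and 7 at S+. The count for B10 S- against S+ was 0 without any S- array, S+ array 3, PreS TCR array 3 or PreS TCR insHEL array 1 or 3. At PreS between strains 3 were called without NOD PreS TCR array 2 or B10 PreS TCR insHEL array 2 or 3. In NOD S- against PreS 7 were called without S- array 1, and in NOD S+ against PreS 13 without PreS TCR insHEL array 3 and 5 without S+ array 1. At S+ between strains the count moved by over 1.5 times with 15 of 24 arrays, and was 0 without NOD S+ array 1 or B10 S+ array 2 or 3, 7 without NOD S+ array 3, 6 without NOD PreS TCR insHEL array 3 and 4 without B10 S+ array 1. None of these leave-one-out counts was set against the number of all probesets called in the same fit. With a C after the leading repeat, the ISRE core was in 37.0% of members. Signals under 32, as for Cxcl10, Mx1, Stat2 and Dhx58 in PreS cells, limit what a fold change shows.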
